A study of Homo sapiens with 24 samples.

Results

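The comparison set the 4 control libraries of MDA-MB-157, an established human triple-negative breast cancer cell line, against the 4 control libraries of MDA-MB-231, a second such line. The 8 libraries were chosen by their labels among the 24 of the series. Each line gave 2 libraries from cells kept for 3 h in DMSO and 2 from cells kept for 3 h in thalidomide at 1000 nM. Both were called controls by the study, whose other treatments were the BET inhibitor BETi-211 (1000 nM) and the BET degrader BETd-246 (100 nM). Thalidomide binds cereblon, the protein that the degrader uses. The labels give mammary gland as the source of both lines, a basal subtype, no ERα, no PR and no excess of HER2. The study called its replicates independent biological replicates. The spread between libraries is therefore that of cultures of 1 established line, and a difference between the lines is one between 2 cell lines and not between groups of tumours. Total RNA had been depleted of ribosomal RNA and copied with random primers into libraries that do not mark the strand. Gene expression was given for 14114 genes in FPKM, a fragment count scaled for transcript length and library size, and no counts were used here. All cells had grown in RPMI medium with serum. Values are means ± SD in FPKM over the 4 control libraries of a line (n = 4), unless they are given for single libraries, whose order is the 2 DMSO and then the 2 thalidomide libraries.

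MDA-MB-157 and MDA-MB-231 both belong to the mesenchymal-like breast cancer lines. Such cells have gone through an epithelial-mesenchymal transition, in which repressors of the SNAI, ZEB and TWIST families shut off E-cadherin and other epithelial genes and the cells take on vimentin, fibronectin and motility. The state is not a single one: cells that share vimentin can differ in matrix, in growth factor receptors and in the pathways that drive them. MDA-MB-231 is known for an activating mutation in BRAF, which feeds the MAP kinase cascade.

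The shared label was checked on defining markers. VIM, the mesenchymal intermediate filament, was at 1996 ± 18.7 FPKM in MDA-MB-157 and 891 ± 58.8 FPKM in MDA-MB-231, against 12.3 FPKM in controls of MDA-MB-468, the third line of the study. CDH1, which encodes E-cadherin, was at 0.406 ± 0.019 FPKM in MDA-MB-157 and 0.177 ± 0.0214 FPKM in MDA-MB-231, against 37.9 FPKM in MDA-MB-468. EPCAM, an epithelial adhesion molecule, was at 1.75 ± 0.136 FPKM in MDA-MB-157 and 3.52 ± 0.294 FPKM in MDA-MB-231, against 152 FPKM in MDA-MB-468. KRT8 and KRT18, a pair of simple epithelial keratins, were present in both lines. KRT8 was at 165 ± 7.87 FPKM in MDA-MB-157 and 159.5 ± 10.6 FPKM in MDA-MB-231. KRT18 was at 303 ± 4.59 FPKM in MDA-MB-157 and 221 ± 14.7 FPKM in MDA-MB-231. Both were higher in MDA-MB-468, whose libraries of all treatments had 1193 to 1590 FPKM of KRT8 and 1115 to 1328 FPKM of KRT18. ESR1 and PGR have no row in the table, and ERBB2 stood at 17.7 ± 1.46 FPKM in MDA-MB-157 and 18.5 ± 0.668 FPKM in MDA-MB-231 (adjusted p = 0.23, limma). By these genes both lines were mesenchymal-like, with KRT8 and KRT18 present below their level in MDA-MB-468. In such bulk libraries, fewer cells with a transcript and less of it per cell cannot be told apart.

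FPKM summed to 454289 to 485488 in the 8 libraries. An estimate from the step that 1 fragment makes in low genes put their depth at 51800000 to 63900000 fragments, and counting intervals were not computed. Correlations of log2 values across genes were 0.9952 to 0.9983 among the MDA-MB-157 libraries, 0.9919 to 0.9984 among the MDA-MB-231 libraries and 0.7842 to 0.7997 between the lines, as a description. The first thalidomide library of MDA-MB-231 stood apart: 163 of 8735 genes at 5 FPKM or more were at least 1.5 times the median of the other 3 libraries there, against 2 to 39 genes in the 7 other libraries. Results that rest on it are given with its value. Genes that were listed at 0 numbered 71 to 93 in MDA-MB-157 libraries and up to 258 in MDA-MB-231 libraries. Genes at 1 FPKM or more numbered 12983 to 13080 in MDA-MB-157 libraries and 12059 to 12209 in MDA-MB-231 libraries.

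Differences were tested on the log2(FPKM + 1) scale with limma across all genes, and a log2 difference below is MDA-MB-157 minus MDA-MB-231 on that scale, which understates the difference of low genes. At a Benjamini-Hochberg adjusted p below 0.05, 12332 of 14114 genes (87.4%) were called, 7077 (50.1%) as higher and 5255 (37.2%) as lower in MDA-MB-157. A call alone therefore says little about a gene, and the counts below use a difference of at least 2-fold that was also called. By that rule 4252 genes (30.1%) differed, 2683 (19%) being higher and 1569 (11.1%) lower in MDA-MB-157. At 4-fold, 920 genes were higher and 434 lower. The 4 MDA-MB-157 libraries all lay above the 4 MDA-MB-231 libraries for 6612 genes (46.8%) and all below for 4819 (34.1%). The median log2 difference of all genes was 0.132 as deposited, 0.009 after median-of-ratios scaling and -0.054 after quantile normalization. The higher genes were 63.1% of the 2-fold calls as deposited, and 55.1% and 50.7% under those scalings. Of the 249 genes named here, many for their wide difference, the 4 libraries of one line lay beyond all 4 of the other in 242. The 7 whose libraries overlapped were BRAF, CXCL8, ERBB2, IL6, KRT8, MCL1 and MT-RNR2. ANXA2, named only in the closing section on processing, is not counted among the 249. Lists of genes are read against the shares and the median of all genes. No gene of the table had a highest group mean below 1.219 FPKM over the 12 groups of line and treatment. A gene below that level in all groups of MDA-MB-231 and MDA-MB-468 is therefore in the table through MDA-MB-157, which fixes its direction. The same holds with the lines exchanged. Counts and medians of the lists below include such genes, and how many members of each list this concerns was not counted.

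Many of the differences lay between expression and near silence. Of the 2683 higher genes, 849 averaged under 0.5 FPKM in MDA-MB-231, and of the 1569 lower genes, 258 averaged under 0.5 FPKM in MDA-MB-157. Over the whole table, 992 genes reached 0.5 FPKM in MDA-MB-157 alone and 332 in MDA-MB-231 alone.

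The genes furthest apart came from a few families. Among the 15 highest in MDA-MB-157 were the matrix genes SPARC and COL3A1, the surface peptidase gene MME, the cell cycle inhibitor gene CDKN2A, 10 histone genes of the HIST1 cluster and RN7SL471P, a copy of the signal recognition particle RNA gene. Among the 15 lowest were B2M, which encodes the light chain of class I major histocompatibility molecules, the transglutaminase gene TGM2, the peptide hormone gene KISS1 and the keratin genes KRT19 and KRT7.

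SPARC, which encodes a collagen-binding matrix glycoprotein, was at 1067, 1032, 1051 and 1051 FPKM in the MDA-MB-157 libraries and at 0.228, 0.285, 0.256 and 0.209 FPKM in the MDA-MB-231 libraries. Its log2 difference was 9.72 (SE 0.028, adjusted p = 3.2e-27, limma). COL3A1, a fibrillar collagen gene, was at 372, 345, 342 and 357 FPKM in MDA-MB-157 and at 0.00345, 0, 0.0137 and 0.00647 FPKM in MDA-MB-231. MME encodes neprilysin, a peptidase known on myoepithelial cells, and was at 132, 137, 127 and 128 FPKM in MDA-MB-157 and at 0.0229, 0.00773, 0 and 0 FPKM in MDA-MB-231. In all 3 genes the lowest MDA-MB-157 library lay far above the highest MDA-MB-231 library. MDA-MB-468 shared the low level of SPARC (0.179 FPKM) and COL3A1 (0.00572 FPKM) but not that of MME (28.6 FPKM).

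B2M showed the widest difference in the other direction, with 0, 0.0108, 0.0188 and 0.0104 FPKM in MDA-MB-157 and 698, 690.0, 570.1 and 731 FPKM in MDA-MB-231, with no overlap (log2 difference -9.37, SE 0.053, adjusted p = 4.9e-24, limma). TGM2, a crosslinking enzyme of matrix and cytosol, was at 0.107, 0.104, 0.0726 and 0.115 FPKM in MDA-MB-157 and 139.6, 135, 143 and 142 FPKM in MDA-MB-231. KISS1, known as a metastasis suppressor gene, was at 0.113, 0.354, 0.256 and 0.18 FPKM in MDA-MB-157 and 136, 144, 131 and 159 FPKM in MDA-MB-231. B2M was as high in MDA-MB-468 (692 FPKM) as in MDA-MB-231, whereas TGM2 (0.0932 FPKM) and KISS1 (1.06 FPKM) were low there. The remaining lowest genes included MYEOV, S100A16, the proteoglycan core gene SRGN, the glutathione transferase gene MGST1, the retinoic acid induced receptor gene GPRC5A, the invariant chain gene CD74 and the nuclear protein genes ANP32A and PSPC1. FP236383.5 belongs to this group by rule, but its 4 MDA-MB-231 values (74.7, 80.5, 233 and 88.9 FPKM) had their highest member in the first thalidomide library.

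**Figure D1:**
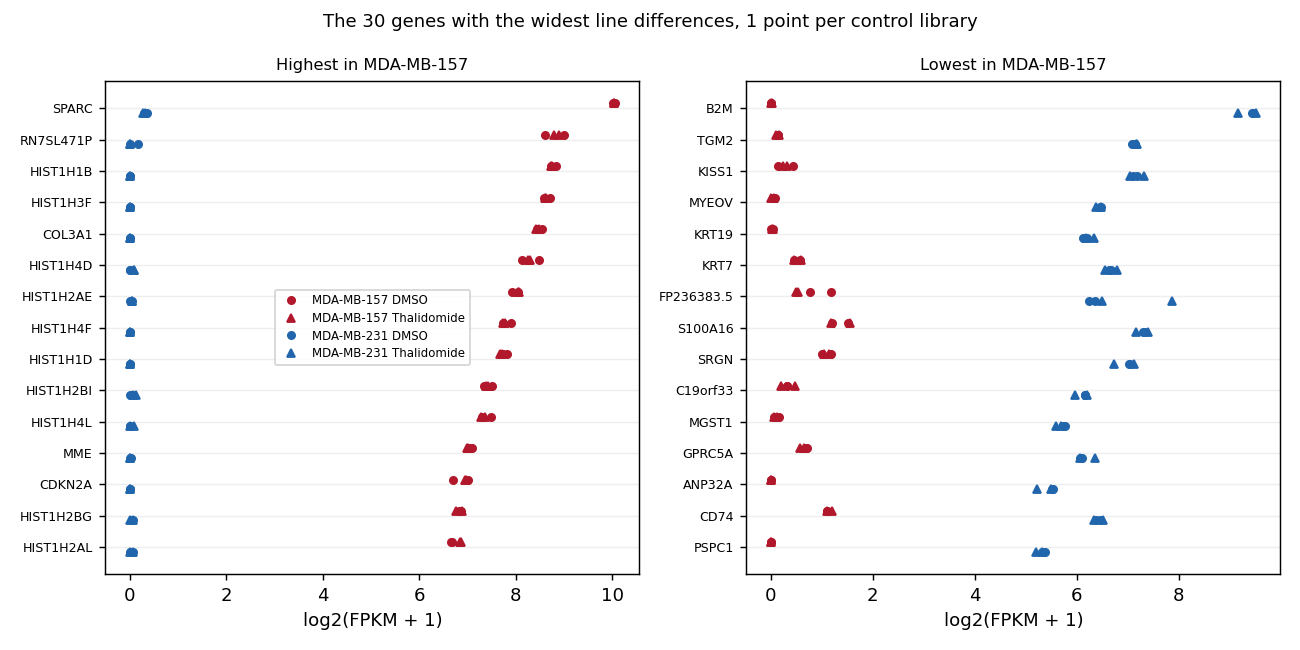
Levels of the 15 genes with the highest and the 15 with the lowest line difference among called genes of at least 10 FPKM. Each point is 1 control library on the log2(FPKM + 1) scale (circles DMSO, triangles thalidomide); no gene has overlapping lines, and the low line sits near 0 for most of them.

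The promoters of the 2 most extreme genes each way outside the histone cluster that have an entry in the RefSeq promoter table are shown because they are the sequences in front of the widest differences. Each runs from 250 bases before to 50 bases after the gene's start on build GRCh38.p14, 5′ to 3′ on the gene's strand, with CpG dinucleotides in capitals. SPARC lies at chr5:151686866-151687165 on the minus strand and MME at chr3:155079422-155079721 on the plus strand. B2M lies at chr15:44711267-44711566 on the plus strand and KISS1 at chr1:204196442-204196741 on the minus strand.
SPARC: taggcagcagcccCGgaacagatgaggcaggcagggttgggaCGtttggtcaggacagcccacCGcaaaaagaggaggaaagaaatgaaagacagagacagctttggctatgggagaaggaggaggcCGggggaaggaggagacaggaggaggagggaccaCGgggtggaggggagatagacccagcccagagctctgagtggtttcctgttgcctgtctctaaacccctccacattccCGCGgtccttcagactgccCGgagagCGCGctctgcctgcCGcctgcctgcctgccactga
MME: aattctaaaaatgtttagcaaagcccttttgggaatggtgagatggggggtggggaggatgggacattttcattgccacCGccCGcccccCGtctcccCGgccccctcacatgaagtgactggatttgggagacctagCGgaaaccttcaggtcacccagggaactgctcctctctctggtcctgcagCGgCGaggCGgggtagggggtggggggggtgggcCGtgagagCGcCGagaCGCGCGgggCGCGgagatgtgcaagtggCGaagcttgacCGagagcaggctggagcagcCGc
B2M: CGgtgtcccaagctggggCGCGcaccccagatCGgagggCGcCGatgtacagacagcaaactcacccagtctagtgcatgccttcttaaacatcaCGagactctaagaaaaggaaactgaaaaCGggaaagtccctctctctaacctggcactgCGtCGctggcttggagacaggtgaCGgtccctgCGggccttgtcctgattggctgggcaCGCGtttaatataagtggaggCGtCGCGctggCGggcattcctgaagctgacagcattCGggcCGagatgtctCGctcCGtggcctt
KISS1: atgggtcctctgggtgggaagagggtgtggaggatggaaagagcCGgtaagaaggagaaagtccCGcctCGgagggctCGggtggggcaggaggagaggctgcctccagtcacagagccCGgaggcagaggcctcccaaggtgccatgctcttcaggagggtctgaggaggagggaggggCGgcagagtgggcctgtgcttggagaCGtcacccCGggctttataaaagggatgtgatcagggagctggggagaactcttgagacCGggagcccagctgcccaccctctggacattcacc
They hold 11 CpG dinucleotides in SPARC, 19 in MME, 22 in B2M and 9 in KISS1. Of 785 protein-coding genes at least 4-fold higher in MDA-MB-157, 529 matched a promoter by symbol, and of 377 at least 4-fold lower, 247 did, against 9298 of the 12046 protein-coding genes of the table. Fewer than 10 CpG dinucleotides were found in 18% of the higher, 21.5% of the lower and 10.0% of all promoters. The letters TATAAA on either strand were found in 6.8% of the higher, 9.7% of the lower and 5.2% of all promoters. The AP-1 type letters TGANTCA on either strand were found in 5.5% of the higher, 8.1% of the lower and 4.3% of all promoters. The E-box letters CACCTG on either strand were found in 17.8% of the higher, 23.1% of the lower and 18.1% of all promoters. These are descriptions of letters in a window and say nothing of binding.

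The transcription factors that drive the mesenchymal state were set differently in the 2 lines. Of 8 measured EMT transcription factors, 6 were at least 2-fold higher and 1 at least 2-fold lower in MDA-MB-157 (all genes 19% and 11.1%). TWIST1, a basic helix-loop-helix repressor of CDH1, was at 41.8, 39.7, 36 and 37.9 FPKM in MDA-MB-157 and was listed at 0 in all 4 libraries of MDA-MB-231. Its relative TWIST2 (9.94 ± 0.618 FPKM in MDA-MB-157) was also listed at 0 in all 4. TWIST1 stayed at or below 0.03187 FPKM in all libraries of MDA-MB-231 and MDA-MB-468. TWIST1 was thus in the table through MDA-MB-157, which fixed its direction. SNAI1, the founding Snail repressor, was at 14.3 ± 1.33 FPKM in MDA-MB-157 and 0.604 ± 0.108 FPKM in MDA-MB-231. SNAI2, or Slug, was at 41 ± 1.73 FPKM in MDA-MB-157 and 13 ± 0.306 FPKM in MDA-MB-231. The zinc finger homeobox pair ran in opposite directions. ZEB2 was at 15.9, 16, 13.3 and 14.2 FPKM in MDA-MB-157 and 3.56, 3.58, 3.65 and 3.2 FPKM in MDA-MB-231, whereas ZEB1 was at 6.85, 7.01, 6.07 and 6.47 FPKM in MDA-MB-157 and 25.7, 25.8, 22.3 and 26.7 FPKM in MDA-MB-231. The log2 differences were 1.81 (SE 0.042) for ZEB2 and -1.78 (SE 0.043) for ZEB1, with no overlap of libraries for either. PRRX2, a paired homeobox gene of mesenchyme, was at 6.14 ± 0.46 FPKM in MDA-MB-157 and 0.0213 ± 0.00762 FPKM in MDA-MB-231. FOXC1, the list's other lower member, was at 4.19 ± 0.189 FPKM in MDA-MB-157 and 6.3 ± 0.217 FPKM in MDA-MB-231.

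Genes of the mesenchymal phenotype differed in both directions. Of 19 measured, 10 were at least 2-fold higher and 6 at least 2-fold lower in MDA-MB-157. CDH2, which encodes N-cadherin, was at 21.6, 21.7, 21.6 and 21.6 FPKM in MDA-MB-157 and 0.257, 0.345, 0.3 and 0.265 FPKM in MDA-MB-231. FN1, which encodes fibronectin, was at 228 ± 5.62 FPKM in MDA-MB-157 and 52.4 ± 3.8 FPKM in MDA-MB-231 and VIM was also higher (log2 difference 1.16, SE 0.042). On the lower side stood AXL, a receptor tyrosine kinase widely used as a mark of the mesenchymal state, with 88.2, 80.2, 92.2 and 92.1 FPKM in MDA-MB-157 and 546, 534, 536 and 572 FPKM in MDA-MB-231. NT5E, an ectonucleotidase gene, was lower at 35.5 ± 1.61 FPKM in MDA-MB-157 and 173 ± 9.16 FPKM in MDA-MB-231. CD44, the hyaluronan receptor gene, was lower at 154 ± 5.7 FPKM in MDA-MB-157 and 342 ± 18.3 FPKM in MDA-MB-231, and so was S100A4 at 60 ± 6.22 FPKM in MDA-MB-157 and 252 ± 17.8 FPKM in MDA-MB-231. CD24, a mucin-like surface protein whose absence is often read together with CD44, was at 101, 114, 101 and 98.3 FPKM in MDA-MB-157 and 2.63, 2.31, 1.96 and 2.29 FPKM in MDA-MB-231.

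Epithelial genes differed in both directions, and past 2-fold more were lower in MDA-MB-157. Of 33 measured, 16 were called as higher and 13 as lower in MDA-MB-157 (median log2 difference 0.062). Past 2-fold 3 were higher and 9 lower (all genes 19% and 11.1%). Those counts were 1 and 10 under quantile normalization and 1 and 9 under median-of-ratios scaling. Many members were low, with 16 under 0.5 FPKM in MDA-MB-157 and 11 in MDA-MB-231. KRT19, a simple keratin gene, was at 0.0248 ± 0.0148 FPKM in MDA-MB-157 and 73.2 ± 4.58 FPKM in MDA-MB-231. KRT7, another, was at 0.435 ± 0.0783 FPKM in MDA-MB-157 and 101 ± 7.45 FPKM in MDA-MB-231. Both were higher again in MDA-MB-468, at 1388 FPKM for KRT19 and 616 FPKM for KRT7. The tight junction gene CLDN4 was lower at 0.572 ± 0.0252 FPKM in MDA-MB-157 and 42.2 ± 2.68 FPKM in MDA-MB-231. AP1M2, an adaptor gene of epithelial sorting, was at 0.00487 ± 0.00566 FPKM in MDA-MB-157 and 22.4 ± 1.92 FPKM in MDA-MB-231, and SPINT2, a protease inhibitor gene, at 2.43 ± 0.245 FPKM in MDA-MB-157 and 69.2 ± 4.5 FPKM in MDA-MB-231. The mucin gene MUC1 was higher, at 3.78 ± 0.292 FPKM in MDA-MB-157 and 0.612 ± 0.219 FPKM in MDA-MB-231. Of 13 measured luminal factors and their targets, 1 was at least 2-fold higher and 6 at least 2-fold lower. Among the lower were ETS factor genes of epithelia, EHF at 0.00965 ± 0.0161 FPKM in MDA-MB-157 and 10.1 ± 0.321 FPKM in MDA-MB-231 and SPDEF at 0.0338 ± 0.0207 FPKM in MDA-MB-157 and 5.1 ± 0.578 FPKM in MDA-MB-231. GATA3, the luminal master regulator, was low in both at 0.0324 ± 0.0109 FPKM in MDA-MB-157 and 1.94 ± 0.0473 FPKM in MDA-MB-231. Among 19 basal and myoepithelial genes, 3 were at least 2-fold higher, led by MME, and 6 at least 2-fold lower, led by LAMB3.

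**Figure D2:**
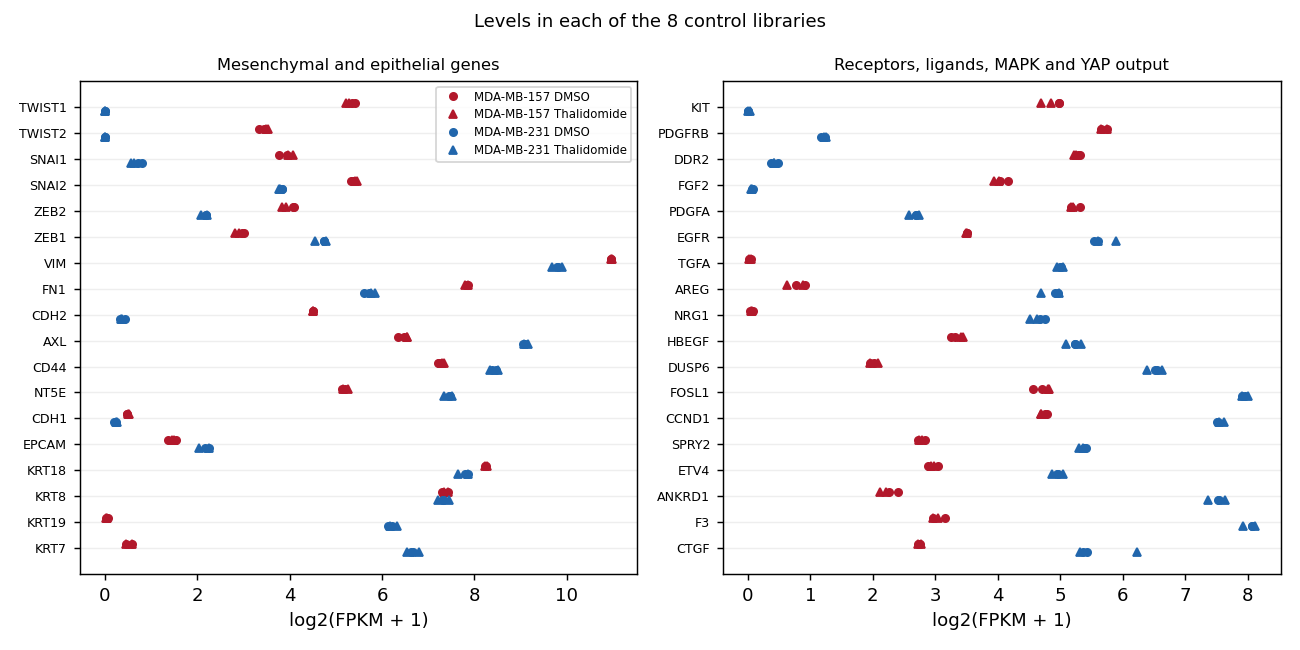
Levels in each of the 8 control libraries on the log2(FPKM + 1) scale (circles DMSO, triangles thalidomide). Left, EMT factors, mesenchymal genes and epithelial genes: TWIST1, TWIST2 and CDH2 are near 0 in MDA-MB-231, ZEB1 and AXL are lower in MDA-MB-157, and KRT8 overlaps. Right, receptors, ligands and output genes of the MAP kinase and YAP pathways, most of them lower in MDA-MB-157.

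Most collagen genes were higher in MDA-MB-157. Of 24 measured collagen genes 18 were at least 2-fold higher and 4 at least 2-fold lower, with a median log2 difference of 1.91 over the list (0.132 over all genes). Their summed level was 1419.6 to 1604 FPKM in the MDA-MB-157 libraries and 298.0 to 315.1 FPKM in the MDA-MB-231 libraries. COL5A3 was at 61.7, 57.3, 60.6 and 63.5 FPKM in MDA-MB-157 and 0, 0, 0 and 0.0029 FPKM in MDA-MB-231. COL3A1 and COL5A3 stayed at or below 0.04994 FPKM in all libraries of MDA-MB-231 and MDA-MB-468. Both were thus in the table through MDA-MB-157, which fixed their direction. COL1A1, the main collagen of bone and scar, was at 24.3 ± 2.13 FPKM in MDA-MB-157 and 0.578 ± 0.0433 FPKM in MDA-MB-231. COL6A1, a microfibril collagen gene, was at 203 ± 19.9 FPKM in MDA-MB-157 and 10.3 ± 0.567 FPKM in MDA-MB-231, and COL4A1, of basement membranes, at 99.5 ± 4.28 FPKM in MDA-MB-157 and 30.5 ± 0.962 FPKM in MDA-MB-231. The exceptions included a pair of transmembrane collagens. COL13A1 was at 0.858 ± 0.092 FPKM in MDA-MB-157 and 45.6 ± 1.57 FPKM in MDA-MB-231 and COL17A1 at 0.304 ± 0.00863 FPKM in MDA-MB-157 and 2.57 ± 0.0322 FPKM in MDA-MB-231. COL17A1, at or below 0.3801 FPKM in all libraries of MDA-MB-157 and MDA-MB-468, had its direction fixed through MDA-MB-231. The short-chain collagen gene COL8A1 was at 4.63 ± 0.402 FPKM in MDA-MB-157 and 46.9 ± 1.14 FPKM in MDA-MB-231 and COL4A5, of basement membranes, at 0.00245 ± 0.0035 FPKM in MDA-MB-157 and 1.69 ± 0.0838 FPKM in MDA-MB-231.

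Of 49 measured matrix glycoproteins and proteoglycans, 30 were at least 2-fold higher and 6 at least 2-fold lower (median log2 difference 1.51). Several were near 0 in MDA-MB-231. FBLN2, which encodes fibulin 2, was at 102 ± 9.54 FPKM in MDA-MB-157 and 0.0202 ± 0.00399 FPKM in MDA-MB-231. NID1, which encodes nidogen 1, was at 54.3 ± 2.71 FPKM in MDA-MB-157 and 0.00961 ± 0.0124 FPKM in MDA-MB-231, and LUM, which encodes lumican, at 55.3 ± 2.09 FPKM in MDA-MB-157 and 0.134 ± 0.0149 FPKM in MDA-MB-231. Tenascin C (TNC) was at 43 ± 1.27 FPKM in MDA-MB-157 and 3.2 ± 0.162 FPKM in MDA-MB-231, and the small proteoglycan decorin (DCN) at 16.5 ± 0.766 FPKM in MDA-MB-157 and 0.116 ± 0.0852 FPKM in MDA-MB-231. FBLN2, NID1, LUM and DCN stayed at or below 0.2348 FPKM in all libraries of MDA-MB-231 and MDA-MB-468. They were thus in the table through MDA-MB-157, which fixed their direction. THBS1, which encodes thrombospondin 1, went the other way with 43.9, 45.6, 40.5 and 41.2 FPKM in MDA-MB-157 and 365, 367, 516 and 333 FPKM in MDA-MB-231, where the highest value was that of the first thalidomide library. LAMB3, a laminin chain of epithelial basement membranes, was at 6.71 ± 0.492 FPKM in MDA-MB-157 and 104 ± 5.9 FPKM in MDA-MB-231. Enzymes that finish collagen showed 7 of 17 at least 2-fold higher and 2 lower. PCOLCE, an enhancer of procollagen cleavage, was at 51.5 ± 3.24 FPKM in MDA-MB-157 and 0.56 ± 0.0393 FPKM in MDA-MB-231. The lysyl oxidase genes diverged, with LOXL1 at 21.8 ± 2.66 FPKM in MDA-MB-157 and 2.84 ± 0.0928 FPKM in MDA-MB-231 and LOXL4 at 0.0825 ± 0.0231 FPKM in MDA-MB-157 and 12.1 ± 0.587 FPKM in MDA-MB-231. SERPINH1, the collagen chaperone, was lower in the line with more collagen mRNA, at 12.4, 10.5, 11.6 and 12.6 FPKM in MDA-MB-157 and 131, 129, 124 and 139 FPKM in MDA-MB-231.

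Proteases and their inhibitors split by class. Of 13 measured genes of the plasminogen system and serpins, 8 were at least 2-fold lower and 2 higher in MDA-MB-157 (median log2 difference -2.06). PLAU, the urokinase gene, was at 9.13, 8.96, 8.53 and 8.77 FPKM in MDA-MB-157 and 113, 113, 109.9 and 118 FPKM in MDA-MB-231. Its receptor gene PLAUR was lower as well, at 11.8 ± 0.814 FPKM in MDA-MB-157 and 54.7 ± 3.84 FPKM in MDA-MB-231, and the tissue activator gene PLAT was at 11.2 ± 0.808 FPKM in MDA-MB-157 and 50.1 ± 4.24 FPKM in MDA-MB-231. SERPINB9, an inhibitor of granzyme B, was at 0.0597 ± 0.0336 FPKM in MDA-MB-157 and 24.9 ± 0.773 FPKM in MDA-MB-231. SERPINE2, or protease nexin 1, was higher at 43.9 ± 0.596 FPKM in MDA-MB-157 and 6.87 ± 0.544 FPKM in MDA-MB-231. Metalloproteinases divided 9 higher to 8 lower of 29. The gelatinase gene MMP2 was at 30.2, 27.9, 29.8 and 30 FPKM in MDA-MB-157 and 0, 0.0338, 0.0235 and 0 FPKM in MDA-MB-231. MMP14, the membrane-bound activator of MMP2, was at 6.43, 6.13, 5.97 and 6.2 FPKM in MDA-MB-157 and 79.3, 78.4, 78.5 and 81.7 FPKM in MDA-MB-231. The collagenase gene MMP1 was lower at 0.229 ± 0.0271 FPKM in MDA-MB-157 and 20.1 ± 1.67 FPKM in MDA-MB-231. ADAMTS2, which trims procollagen, was higher at 41.5 ± 3.94 FPKM in MDA-MB-157 and 0.034 ± 0.00474 FPKM in MDA-MB-231.

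Integrins, the receptors of these matrices, showed 6 of 18 at least 2-fold higher and 6 at least 2-fold lower in MDA-MB-157. ITGA4, an alpha chain for fibronectin and VCAM1, was at 17.3 ± 0.776 FPKM in MDA-MB-157 and 0.0144 ± 0.00742 FPKM in MDA-MB-231. ITGA9, of the same subfamily, was at 11.7 ± 0.362 FPKM in MDA-MB-157 and 0.0401 ± 0.0111 FPKM in MDA-MB-231, and ITGA11, a collagen receptor of fibroblasts, at 9.07 ± 0.677 FPKM in MDA-MB-157 and 0.107 ± 0.0265 FPKM in MDA-MB-231. The laminin receptor chains were lower, with ITGA6 at 14.1 ± 0.439 FPKM in MDA-MB-157 and 143 ± 4.76 FPKM in MDA-MB-231 and ITGB4 at 4.33 ± 0.427 FPKM in MDA-MB-157 and 25.9 ± 1.03 FPKM in MDA-MB-231. ITGA2, a collagen receptor chain, was at 0.675 ± 0.101 FPKM in MDA-MB-157 and 14 ± 0.849 FPKM in MDA-MB-231. ITGB1, the chain common to most of these receptors, was at 118 ± 5.56 FPKM in MDA-MB-157 and 355 ± 9.82 FPKM in MDA-MB-231. Among cadherins and protocadherins 17 of 29 were at least 2-fold higher and 3 lower. PCDH18, a protocadherin gene, was higher at 22.2 ± 1.48 FPKM in MDA-MB-157 and 0.0238 ± 0.00834 FPKM in MDA-MB-231, and CDH4, the R-cadherin gene, lower at 0.109 ± 0.00873 FPKM in MDA-MB-157 and 15.2 ± 1.29 FPKM in MDA-MB-231. PCDH18 and CDH2 stayed at or below 0.3522 FPKM in all libraries of MDA-MB-231 and MDA-MB-468. CDH4 stayed at or below 0.1214 FPKM in those of MDA-MB-157 and MDA-MB-468. The direction of these genes was fixed by their place in the table. Of 18 contractile and actin-binding genes 6 were at least 2-fold higher and 2 lower. ACTA2, smooth muscle actin, was at 152, 142, 149 and 151 FPKM in MDA-MB-157 and 0.906, 0.859, 1.01 and 0.957 FPKM in MDA-MB-231, and MYH9, non-muscle myosin IIA, at 21.6, 20, 20.8 and 21.4 FPKM in MDA-MB-157 and 228, 238, 278 and 229.6 FPKM in MDA-MB-231. The 2 caveolae genes past 2-fold were lower, SDPR at 0.0791 ± 0.0264 FPKM in MDA-MB-157 and 27.4 ± 2.42 FPKM in MDA-MB-231 and PRKCDBP at 16.5 ± 1.81 FPKM in MDA-MB-157 and 56.3 ± 3.27 FPKM in MDA-MB-231. CAV1, the coat protein gene of caveolae, was at 234 ± 6.07 FPKM in MDA-MB-157 and 355 ± 20.4 FPKM in MDA-MB-231.

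Growth factor receptors and their ligands differed in kind. Of 26 receptor tyrosine kinase genes measured 9 were at least 2-fold higher and 5 lower in MDA-MB-157 (all genes 19% and 11.1%). KIT, the stem cell factor receptor gene, was at 30.5, 30.6, 24.9 and 27.8 FPKM in MDA-MB-157 and 0.00369, 0.0035, 0.0073 and 0.0208 FPKM in MDA-MB-231. PDGFRB, the platelet-derived growth factor receptor gene of pericytes and fibroblasts, was at 51.1 ± 2.04 FPKM in MDA-MB-157 and 1.32 ± 0.0536 FPKM in MDA-MB-231. DDR2, a collagen receptor gene, was at 37.5 ± 1.17 FPKM in MDA-MB-157 and 0.342 ± 0.0461 FPKM in MDA-MB-231. EGFR was lower, with 10.3, 10.4, 10.3 and 10.3 FPKM in MDA-MB-157 and 45.4, 47.6, 58.4 and 47.6 FPKM in MDA-MB-231, its highest value in the first thalidomide library. Of 22 ligand genes 5 were at least 2-fold higher and 8 lower, and 5 of those 8 encode ligands of the EGF family. TGFA was at 0.0281 ± 0.0132 FPKM in MDA-MB-157 and 31 ± 0.873 FPKM in MDA-MB-231, and NRG1 at 0.0432 ± 0.0179 FPKM in MDA-MB-157 and 24.1 ± 1.75 FPKM in MDA-MB-231. AREG was at 0.745 ± 0.153 FPKM in MDA-MB-157 and 28.8 ± 2.6 FPKM in MDA-MB-231, EREG at 0.0691 ± 0.0176 FPKM in MDA-MB-157 and 7.82 ± 0.604 FPKM in MDA-MB-231 and HBEGF at 9.22 ± 0.636 FPKM in MDA-MB-157 and 36.5 ± 2.43 FPKM in MDA-MB-231. EGFR and these EGF family ligands were thus all higher in MDA-MB-231. On the higher side stood FGF2, at 15.5 ± 1.09 FPKM in MDA-MB-157 and 0.0488 ± 0.00811 FPKM in MDA-MB-231. PDGFD was at 6.19 ± 0.522 FPKM in MDA-MB-157 and 0.173 ± 0.0487 FPKM in MDA-MB-231, and PDGFA at 36.2 ± 1.85 FPKM in MDA-MB-157 and 5.4 ± 0.314 FPKM in MDA-MB-231. HGF was at 3.44 ± 0.306 FPKM in MDA-MB-157 and was listed at 0 in all 4 MDA-MB-231 libraries.

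Most genes that the MAP kinase cascade is known to switch on were lower in MDA-MB-157. Of 19 measured output genes 13 were at least 2-fold lower and 0 higher (median log2 difference -1.14). DUSP6, a phosphatase gene that ERK induces as its own brake, was at 3.04, 2.89, 2.88 and 3.22 FPKM in MDA-MB-157 and 90.4, 92.2, 83.1 and 97.6 FPKM in MDA-MB-231 (log2 difference -4.52, SE 0.054, adjusted p = 3.3e-20, limma). The AP-1 gene FOSL1 was at 25.3, 22.6, 27.4 and 26.8 FPKM in MDA-MB-157 and 247, 239, 241 and 255 FPKM in MDA-MB-231. CCND1, the cyclin D1 gene, was at 26.6, 26.1, 24.9 and 24.8 FPKM in MDA-MB-157 and 182, 184, 196 and 186 FPKM in MDA-MB-231. Another brake, SPRY2, had the same direction at 5.82 ± 0.241 FPKM in MDA-MB-157 and 40.2 ± 1.29 FPKM in MDA-MB-231. So had DUSP4, a phosphatase gene, at 9.18 ± 0.274 FPKM in MDA-MB-157 and 49.3 ± 0.797 FPKM in MDA-MB-231, and ETV4, an ETS factor gene, at 6.77 ± 0.365 FPKM in MDA-MB-157 and 30.1 ± 1.43 FPKM in MDA-MB-231. BRAF, a kinase of the cascade, had overlapping libraries. It was at 7.03 ± 0.276 FPKM in MDA-MB-157 and 7.24 ± 1.09 FPKM in MDA-MB-231 (adjusted p = 0.68, limma). Without the second thalidomide library of MDA-MB-231 BRAF was called as lower (adjusted p = 0.014, limma). NF1, whose product switches RAS off, was higher at 20.9, 22.4, 19.9 and 21.3 FPKM in MDA-MB-157 and 4.12, 3.96, 5.05 and 3.79 FPKM in MDA-MB-231.

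Many YAP and TEAD target genes were lower as well, with 14 of 25 at least 2-fold lower and 2 higher (median log2 difference -1.25). ANKRD1, a stretch-induced cofactor gene, was at 3.78, 4.28, 3.32 and 3.66 FPKM in MDA-MB-157 and 184, 185, 164 and 198 FPKM in MDA-MB-231. F3, the tissue factor gene, was at 6.77, 7.92, 6.78 and 7.22 FPKM in MDA-MB-157 and 268, 266, 241 and 277 FPKM in MDA-MB-231. CTGF was at 5.63, 5.73, 5.86 and 5.63 FPKM in MDA-MB-157 and 40.4, 42.1, 73.7 and 38.8 FPKM in MDA-MB-231, the highest of them in the first thalidomide library, and CYR61 at 35.5, 38.7, 42.8 and 41.8 FPKM in MDA-MB-157 and 89.6, 93.3, 156.7 and 81.9 FPKM in MDA-MB-231 in the same pattern. DLC1, a GTPase-activating protein gene, was at 0.0574 ± 0.00886 FPKM in MDA-MB-157 and 37.4 ± 0.499 FPKM in MDA-MB-231. The list shares AXL and NT5E with the mesenchymal list above, so the counts are not separate evidence.

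The TGF-beta and BMP pathway had 18 of 40 genes at least 2-fold higher and 4 lower in MDA-MB-157 (median log2 difference 0.745). The ID genes, direct targets of BMP signalling that block basic helix-loop-helix factors, were all higher. ID1 was at 252 ± 13.8 FPKM in MDA-MB-157 and 84.2 ± 5.71 FPKM in MDA-MB-231, and ID2 at 42.4 ± 1.11 FPKM in MDA-MB-157 and 1.73 ± 0.179 FPKM in MDA-MB-231. ID3 was at 303 ± 24.6 FPKM in MDA-MB-157 and 24.9 ± 0.97 FPKM in MDA-MB-231, and ID4 at 11.1 ± 0.804 FPKM in MDA-MB-157 and 0.342 ± 0.0438 FPKM in MDA-MB-231. Among ligand genes BMP7 was higher at 14.5 ± 1.78 FPKM in MDA-MB-157 and 0.147 ± 0.0577 FPKM in MDA-MB-231 and TGFB3 at 14.3 ± 0.864 FPKM in MDA-MB-157 and 0.614 ± 0.0439 FPKM in MDA-MB-231. SMAD6, an inhibitory SMAD gene, was higher at 13.7 ± 1.41 FPKM in MDA-MB-157 and 0.655 ± 0.0426 FPKM in MDA-MB-231. The extracellular antagonist genes NOG, or noggin, and FST, or follistatin, were lower: NOG was at 0.157, 0.0681, 0.111 and 0.0945 FPKM in MDA-MB-157 and 21.6, 21.7, 19.1 and 21.1 FPKM in MDA-MB-231, and FST was at 1.98 ± 0.204 FPKM in MDA-MB-157 and 19.8 ± 1.95 FPKM in MDA-MB-231. BMP4 was lower at 19.1 ± 1.07 FPKM in MDA-MB-157 and 41.9 ± 1.37 FPKM in MDA-MB-231.

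The Notch pathway had 12 of 20 genes at least 2-fold higher and 1 lower (median log2 difference 1.40). The receptor genes NOTCH3 and NOTCH1 ran in opposite directions. NOTCH3 was at 43.2, 36.7, 42.2 and 46.8 FPKM in MDA-MB-157 and 0.0683, 0.069, 0.122 and 0.118 FPKM in MDA-MB-231, and NOTCH1 at 2.43, 2.09, 2.58 and 2.76 FPKM in MDA-MB-157 and 11, 11.2, 13.5 and 11.5 FPKM in MDA-MB-231. The target gene HEY1 was at 46.6, 45, 41.1 and 43.6 FPKM in MDA-MB-157 and 0.168, 0.127, 0.133 and 0.0472 FPKM in MDA-MB-231. HES1, another target, was at 24.9 ± 0.43 FPKM in MDA-MB-157 and 5.93 ± 0.657 FPKM in MDA-MB-231, and the ligand gene JAG1 at 43.9 ± 2.28 FPKM in MDA-MB-157 and 14.3 ± 0.235 FPKM in MDA-MB-231. Of 7 Hedgehog genes measured among 14 listed, 4 were at least 2-fold higher and 0 lower. The higher genes numbered 2 under quantile normalization and 3 under median-of-ratios scaling. SMO, the pathway's transducer, was at 22.5, 20.3, 20.7 and 21.4 FPKM in MDA-MB-157 and was listed at 0 in all 4 libraries of MDA-MB-231, as was the coreceptor gene GAS1 (14.9 ± 1.36 FPKM in MDA-MB-157). The pathway target PTCH1 was at 2.55 ± 0.14 FPKM in MDA-MB-157 and 2.22 ± 0.155 FPKM in MDA-MB-231, and its call (adjusted p = 0.0097, limma) was lost without the second thalidomide library of MDA-MB-231 (adjusted p = 0.052). Under quantile normalization its log2 difference turned to -0.28, against 0.14 as deposited. Wnt genes divided 6 higher to 5 lower of 30 (all genes 19% and 11.1%), and 6 higher to 8 lower under quantile normalization. Secreted antagonist genes differed by member. SFRP1 was higher at 33.9 ± 0.92 FPKM in MDA-MB-157 and 0.0314 ± 0.0126 FPKM in MDA-MB-231 and DKK3 at 60.7 ± 0.695 FPKM in MDA-MB-157 and 0.366 ± 0.0694 FPKM in MDA-MB-231, whereas DKK1 was lower at 68.7 ± 8.02 FPKM in MDA-MB-157 and 226 ± 21.3 FPKM in MDA-MB-231. WNT6, a ligand gene, was at 11.3 ± 1.31 FPKM in MDA-MB-157 and 0.00269 ± 0.00538 FPKM in MDA-MB-231, and LRP5, a coreceptor gene, at 4.04 ± 0.654 FPKM in MDA-MB-157 and 18.8 ± 1.89 FPKM in MDA-MB-231. Of 17 Eph receptor and ephrin genes 8 were at least 2-fold higher (5 under quantile normalization) and 1 lower, with EFNB3 at 18.1 ± 0.508 FPKM in MDA-MB-157 and 0.493 ± 0.0694 FPKM in MDA-MB-231.

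**Figure D3:**
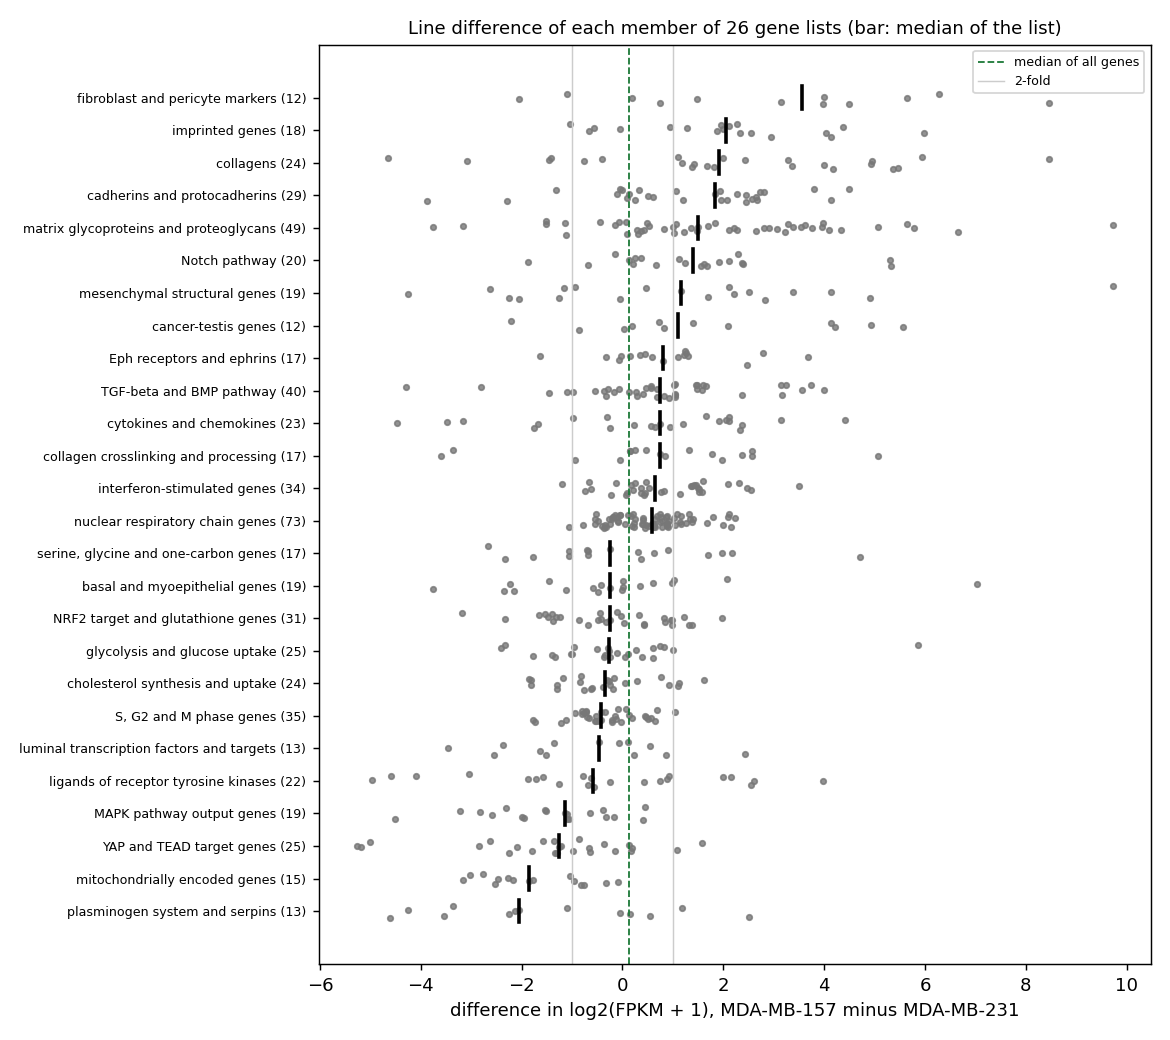
Difference in log2(FPKM + 1), MDA-MB-157 minus MDA-MB-231, of each measured member of 26 gene lists (number of members in brackets), sorted by the median of the list. Each grey point is 1 gene, black bars are medians and the green dashed line is the median of all genes, 0.132. Fibroblast markers, collagens, imprinted genes, cadherins and matrix glycoproteins stand at the top, and the mitochondrially encoded and plasminogen system genes at the bottom.

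Inflammatory genes did not move as 1 group. Of 23 cytokine and chemokine genes 10 were at least 2-fold higher and 5 lower in MDA-MB-157. IL11, a cytokine of the IL6 family, was at 308, 259, 327 and 309.6 FPKM in MDA-MB-157 and 64.6, 67.1, 64.8 and 78.9 FPKM in MDA-MB-231, and the monocyte attractant gene CCL2 at 20.8 ± 1.92 FPKM in MDA-MB-157 and 0.0129 ± 0.0149 FPKM in MDA-MB-231. CXCL6 was at 7.85 ± 1.01 FPKM in MDA-MB-157 and was listed at 0 in all MDA-MB-231 libraries. IL24 was lower at 0.218 ± 0.0425 FPKM in MDA-MB-157 and 26 ± 1.7 FPKM in MDA-MB-231, IL18 at 0.449 ± 0.0621 FPKM in MDA-MB-157 and 15.2 ± 1.76 FPKM in MDA-MB-231 and LIF at 0.406 ± 0.0688 FPKM in MDA-MB-157 and 11.6 ± 0.445 FPKM in MDA-MB-231. IL6 was at 8.23 ± 1.02 FPKM in MDA-MB-157 and 6.9 ± 0.514 FPKM in MDA-MB-231, and CXCL8 at 8.21 ± 1.01 FPKM in MDA-MB-157 and 10.4 ± 0.96 FPKM in MDA-MB-231, both with overlapping libraries. The call of IL6 (log2 difference 0.22, adjusted p = 0.012, limma) was lost without the second DMSO library of either line (adjusted p = 0.064). NF-kB subunits and feedback genes were lower in 7 of 18 and higher in 1. BIRC3, an inhibitor of apoptosis gene under NF-kB, was at 1.07, 1.05, 0.796 and 0.912 FPKM in MDA-MB-157 and 24.5, 24.1, 23.1 and 24.8 FPKM in MDA-MB-231. TRAF1, a signalling adaptor gene, was at 0.0475 ± 0.0253 FPKM in MDA-MB-157 and 7.71 ± 0.647 FPKM in MDA-MB-231, and NFKBIE, an inhibitor gene, at 4.42 ± 0.462 FPKM in MDA-MB-157 and 32.2 ± 1.67 FPKM in MDA-MB-231. The subunit genes had the same direction, NFKB2 at 9.12 ± 0.79 FPKM in MDA-MB-157 and 32.4 ± 1.04 FPKM in MDA-MB-231 and RELB at 3.36 ± 0.151 FPKM in MDA-MB-157 and 11.9 ± 0.236 FPKM in MDA-MB-231. Interferon-stimulated genes were at least 2-fold higher in 15 of 34 and lower in 1 (median log2 difference 0.647). IFI6 was at 79.8 ± 5.26 FPKM in MDA-MB-157 and 6.16 ± 0.301 FPKM in MDA-MB-231, and the antiviral gene MX1 at 18 ± 1.62 FPKM in MDA-MB-157 and 2.84 ± 0.149 FPKM in MDA-MB-231. RSAD2, or viperin, was at 6.31 ± 0.269 FPKM in MDA-MB-157 and 0.247 ± 0.0451 FPKM in MDA-MB-231. The lower gene was OAS2, at 1.68 ± 0.243 FPKM in MDA-MB-157 and 5.11 ± 0.312 FPKM in MDA-MB-231.

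Of 23 measured antigen presentation genes 4 were at least 2-fold higher and 8 at least 2-fold lower in MDA-MB-157. The class I heavy chain genes HLA-B, HLA-C and HLA-F were higher in MDA-MB-157. HLA-B was at 741 ± 13.5 FPKM in MDA-MB-157 and 373 ± 24 FPKM in MDA-MB-231. HLA-C was at 416 ± 19.7 FPKM in MDA-MB-157 and 117 ± 6.76 FPKM in MDA-MB-231, and HLA-F at 36.4 ± 2.94 FPKM in MDA-MB-157 and 3.76 ± 0.332 FPKM in MDA-MB-231. B2M, their common light chain, was near 0 in every MDA-MB-157 library, as given above. HLA genes are near-identical copies in part, and the counting could divide reads among them. Of the class II genes CD74 was lower at 1.15, 1.15, 1.14 and 1.29 FPKM in MDA-MB-157 and 86.2, 82.3, 80.2 and 90.7 FPKM in MDA-MB-231 and HLA-DRA at 0.288 ± 0.0984 FPKM in MDA-MB-157 and 11.9 ± 0.945 FPKM in MDA-MB-231. CD274, which encodes PD-L1, was at 0.316, 0.246, 0.304 and 0.234 FPKM in MDA-MB-157 and 13.6, 13.6, 11.8 and 14.7 FPKM in MDA-MB-231.

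Positional and lineage genes separated the lines further. Genes of the HOXA (3 of 3), HOXC (5 of 5) and HOXD (1 of 1) clusters in the table were at least 2-fold higher in MDA-MB-157, and 1 of 2 HOXB genes was lower. HOXD8 and HOXA13 stayed at or below 0.801 FPKM in all libraries of MDA-MB-231 and MDA-MB-468. They were thus in the table through MDA-MB-157, which fixed their direction, as HOXB9 was through MDA-MB-231. The 5 HOXC genes averaged at least 2 FPKM in MDA-MB-468 controls too. Such counts do not describe whole clusters. HOXC13 was at 10.1, 10.2, 9.88 and 10.2 FPKM in MDA-MB-157 and 0.00794, 0, 0 and 0 FPKM in MDA-MB-231, and HOXC12 (10.7 ± 0.731 FPKM), HOXC10 (3.99 ± 0.13 FPKM) and HOXD8 (7.7 ± 0.476 FPKM in MDA-MB-157) were listed at 0 in the 4 MDA-MB-231 libraries. HOXB9 was at 0.0966, 0.064, 0.0436 and 0.0898 FPKM in MDA-MB-157 and 8.45, 8.51, 8.27 and 8.94 FPKM in MDA-MB-231. Of 47 other developmental transcription factor genes 20 were at least 2-fold higher and 7 lower. The T-box gene TBX3 (10.5 ± 0.285 FPKM in MDA-MB-157) was listed at 0 in all MDA-MB-231 libraries and TBX2 was at 9.65 ± 0.833 FPKM in MDA-MB-157 and 0.00551 ± 0.00771 FPKM in MDA-MB-231. SOX4 was at 23.1, 22.6, 21.2 and 22.7 FPKM in MDA-MB-157 and 0.824, 0.781, 0.673 and 0.604 FPKM in MDA-MB-231, and SOX9 at 3.89, 4.3, 4.26 and 4.27 FPKM in MDA-MB-157 and 22.7, 21.6, 27.4 and 19.7 FPKM in MDA-MB-231. NR2F2, an orphan nuclear receptor gene, was lower at 1.11 ± 0.113 FPKM in MDA-MB-157 and 36.8 ± 7.02 FPKM in MDA-MB-231.

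Imprinted genes, which are normally read from 1 parental copy, were at least 2-fold higher in 13 of 18 and lower in 1 (median log2 difference 2.05). PEG10 was at 229, 249, 232 and 239 FPKM in MDA-MB-157 and 10.1, 9.83, 12.7 and 9.44 FPKM in MDA-MB-231. SNRPN was at 63.2 ± 1.68 FPKM in MDA-MB-157 and 0.0239 ± 0.0138 FPKM in MDA-MB-231, and PEG3 at 15.5 ± 0.798 FPKM in MDA-MB-157 and 0.00106 ± 0.00122 FPKM in MDA-MB-231. H19, a long non-coding RNA gene, was at 17.4 ± 0.93 FPKM in MDA-MB-157 and 0.0516 ± 0.0243 FPKM in MDA-MB-231. GRB10 was lower at 10.8 ± 0.472 FPKM in MDA-MB-157 and 23.4 ± 0.297 FPKM in MDA-MB-231. Cancer-testis genes, which most adult tissues keep silent, were at least 2-fold higher in 6 of 12 and lower in 1. MAGEC2 was at 51.7, 50.5, 49.6 and 47.8 FPKM in MDA-MB-157 and 0.0872, 0.101, 0.0671 and 0.0727 FPKM in MDA-MB-231. TDRD12 was at 31.1 ± 1.32 FPKM in MDA-MB-157 and 0.0549 ± 0.0317 FPKM in MDA-MB-231, and CT83 was lower at 0.135 ± 0.0893 FPKM in MDA-MB-157 and 4.26 ± 0.487 FPKM in MDA-MB-231. MAGEA3 (17.6 ± 0.417 FPKM in MDA-MB-157) was listed at 0 in all MDA-MB-231 libraries, as one of a family of close copies. SNRPN, PEG3, MAGEC2 and TDRD12 stayed at or below 0.4213 FPKM in all libraries of MDA-MB-231 and MDA-MB-468. They were thus in the table through MDA-MB-157, which fixed their direction, and the counts of both lists include them.

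Some of the widest differences were neighbours on a chromosome. A rule chosen after the values were seen counted runs of at least 3 neighbouring genes of the table that averaged under 0.5 FPKM in one line and at least 2 FPKM in the other, with genes low in both lines allowed between. It found 6 runs low in MDA-MB-157 with 19 genes, and 23 runs low in MDA-MB-231 with 100 genes. With other limits, also chosen after the values were seen, there were 4 to 10 runs low in MDA-MB-157 (12 to 33 genes) and 6 to 35 runs low in MDA-MB-231 (33 to 139 genes). In all, 227 genes of this kind were low in MDA-MB-157 and 768 in MDA-MB-231. Every gene of a run reached 2 FPKM in MDA-MB-468 in 1 of the runs low in MDA-MB-157 and in 5 of those low in MDA-MB-231.

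The run with the most genes lay in the HIST1 cluster of replication-dependent histone genes on chromosome 6, from 26188765 to 26273356 (GRCh38, annotation of GENCODE 29). It held 14 counted genes between HIST1H4D and HIST1H2BI. A second run of 4 genes, HIST1H2AL, HIST1H1B, HIST1H3I and HIST1H4L, lay at 27865355 to 27873510. HIST1H1B, a linker histone gene, was at 426, 455, 428 and 421 FPKM in MDA-MB-157 and was listed at 0 in the 4 MDA-MB-231 libraries. HIST1H3F was at 418, 382, 395 and 392 FPKM in MDA-MB-157 and likewise at 0 in MDA-MB-231, and HIST1H4D was at 354, 278, 313 and 305 FPKM in MDA-MB-157 and 0, 0, 0.0655 and 0.062 FPKM in MDA-MB-231. MDA-MB-468 expressed them all, HIST1H1B at 566 FPKM. Of the 33 HIST1 genes outside the runs, 27 had higher means in MDA-MB-231 than in MDA-MB-157. HIST1H1A, also outside the runs and named after its values were seen, was near 0 in MDA-MB-231, at 41.1 ± 3.15 FPKM in MDA-MB-157 and 0.0817 ± 0.0301 FPKM in MDA-MB-231. HIST1H1E was at 207, 214, 253 and 243 FPKM in MDA-MB-157 and 878, 929, 856 and 1065 FPKM in MDA-MB-231, and HIST1H4H, next to the first run, at 292 ± 13 FPKM in MDA-MB-157 and 502 ± 60.6 FPKM in MDA-MB-231. Over the whole histone list 26 of 75 genes were at least 2-fold higher and 15 lower. Histone genes are near-identical copies, and how the counting divided reads among them is not given in the sources used here.

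**Figure D4:**
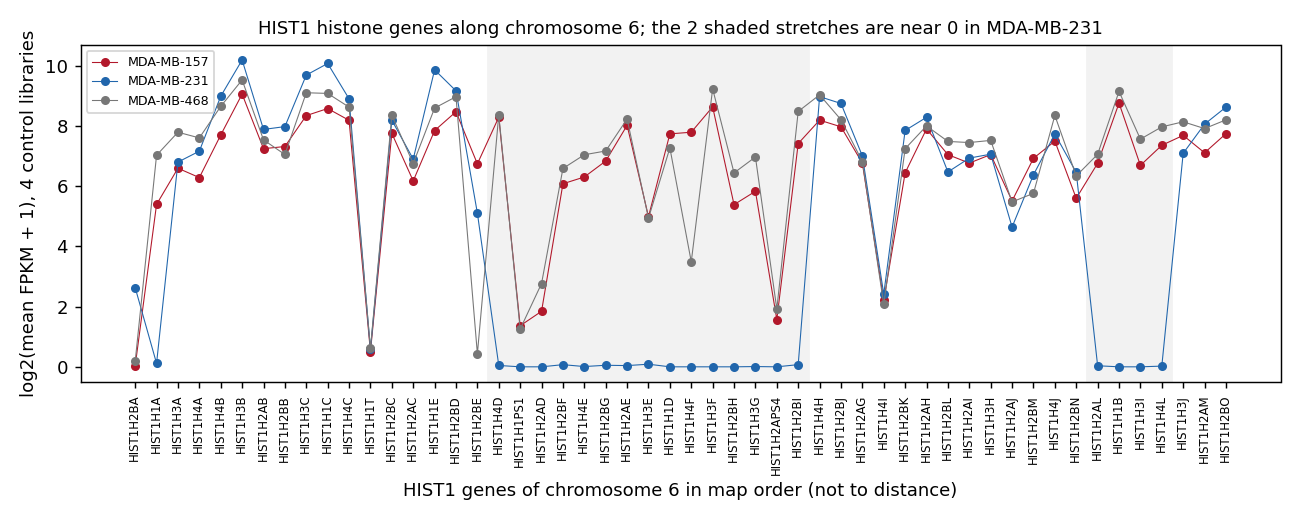
Mean level of the 52 HIST1 genes of the table in controls of MDA-MB-157, MDA-MB-468 and MDA-MB-231, in map order along chromosome 6 and on the log2(FPKM + 1) scale. In the 2 shaded stretches, of 15 and 4 genes, the MDA-MB-231 means lie at 0 to 0.0622 FPKM, and most other genes are as high or higher in MDA-MB-231 than in MDA-MB-157.

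A further run covered chromosome band 9p21, where MDA-MB-231 is known to have lost CDKN2A. CDKN2A, which encodes p16 and p14ARF, was at 128, 103, 122.7 and 124 FPKM in MDA-MB-157 and was listed at 0 in all 4 MDA-MB-231 libraries, and its neighbour CDKN2B was at 17, 16.6, 16.5 and 16.5 FPKM in MDA-MB-157 and at 0 in MDA-MB-231. MTAP, which salvages methylthioadenosine, was at 22.4, 23.6, 22.4 and 22.2 FPKM in MDA-MB-157 and 0.203, 0.143, 0.403 and 0.18 FPKM in MDA-MB-231. ELAVL2, a neuronal RNA-binding protein gene, was at 23.9 ± 2.36 FPKM in MDA-MB-157 and at 0 in every MDA-MB-231 library. KLHL9 and FOCAD lie further out on the same side as MTAP. KLHL9 was at 19.5 ± 0.888 FPKM in MDA-MB-157 and 0.00323 ± 0.00373 FPKM in MDA-MB-231, and FOCAD at 12 ± 0.37 FPKM in MDA-MB-157 and 1.44 ± 0.0176 FPKM in MDA-MB-231. Between KLHL9 and MTAP lies RN7SL151P, a copy of the signal recognition particle RNA gene, which was expressed in both lines at 19.9 ± 5.58 FPKM in MDA-MB-157 and 14.2 ± 0.917 FPKM in MDA-MB-231, and reads of such copies could be divided in the counting. In all, 6 of 7 measured genes of the region were at least 2-fold higher. On chromosome 15 the imprinted MKRN3, NDN, SNRPN and SNHG14 formed a run, and on chromosome 12 the HOXC genes.

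MDA-MB-157 had runs of its own. PSPC1, a paraspeckle protein gene, was at 0, 0.00914, 0.00801 and 0.00888 FPKM in MDA-MB-157 and 38.7, 40.4, 35.9 and 38.8 FPKM in MDA-MB-231. The zinc finger genes ZMYM5 and ZMYM2 beside it complete a run on chromosome 13 from 19674752 to 20091829. ZMYM5 was at 0.117 ± 0.0184 FPKM in MDA-MB-157 and 9.57 ± 0.715 FPKM in MDA-MB-231, and ZMYM2 at 0.00124 ± 0.00153 FPKM in MDA-MB-157 and 12.5 ± 0.481 FPKM in MDA-MB-231. MPHOSPH8 on its other side was expressed in both lines, at 4.58 ± 0.181 FPKM in MDA-MB-157 and 13.7 ± 1.59 FPKM in MDA-MB-231. On chromosome 3, from 136336233 to 136949823, STAG1, a cohesin subunit gene, was at 0.0144, 0.0127, 0.0111 and 0.00701 FPKM in MDA-MB-157 and 25.5, 25.1, 25.5 and 25.8 FPKM in MDA-MB-231, with SLC35G2 listed at 0 in MDA-MB-157 and NCK1 at 0.0604 ± 0.0431 FPKM in MDA-MB-157 and 11.3 ± 0.767 FPKM in MDA-MB-231. B2M had SPG11 as its low neighbour, at 0.275 ± 0.0148 FPKM in MDA-MB-157 and 11.7 ± 0.444 FPKM in MDA-MB-231. EIF3J, the next gene, was expressed in both lines, at 40.7 ± 2.32 FPKM in MDA-MB-157 and 51.4 ± 4.63 FPKM in MDA-MB-231. ANP32A, a phosphatase inhibitor gene, was listed at 0 in all 4 MDA-MB-157 libraries and was at 44.9, 45.3, 36.2 and 44 FPKM in MDA-MB-231. MDA-MB-468 expressed PSPC1 (38.4 FPKM), STAG1 (29.3 FPKM), SPG11 (6.78 FPKM) and ANP32A (48.7 FPKM). DNA was not measured, and whether such runs go with changes of the chromosome was not tested. These neighbours were named after their values were seen.

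Cell cycle genes of the G1 phase differed in their mix. Of 21 measured, 1 was at least 2-fold higher and 8 lower in MDA-MB-157. CCNE1, the cyclin E1 gene, was at 98.3, 97.7, 95.9 and 98.4 FPKM in MDA-MB-157 and 10.8, 11.1, 9.98 and 11.2 FPKM in MDA-MB-231. CDK6 was lower along with its partner CCND1, at 14 ± 0.234 FPKM in MDA-MB-157 and 53 ± 0.936 FPKM in MDA-MB-231. RB1, the retinoblastoma gene, was at 13.3 ± 0.543 FPKM in MDA-MB-157 and 44.3 ± 0.463 FPKM in MDA-MB-231. CDKN1A, which encodes the CDK inhibitor p21, was at 27 ± 1.67 FPKM in MDA-MB-157 and 33.6 ± 2.38 FPKM in MDA-MB-231. Of 35 genes of S, G2 and M phase 1 was at least 2-fold higher and 4 lower. MKI67 was at 22.6, 25.7, 24.2 and 25.4 FPKM in MDA-MB-157 and 72, 79.4, 142 and 67.9 FPKM in MDA-MB-231, where the first thalidomide library was far above the others. MYC was at 25.3, 24, 27.9 and 27.1 FPKM in MDA-MB-157 and 78.5, 78.6, 69.1 and 81.4 FPKM in MDA-MB-231.

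Among 26 BCL2 family and apoptosis inhibitor genes 4 were at least 2-fold higher and 4 lower (all genes 19% and 11.1%). BAX, a pro-apoptotic member, was lower at 15.5 ± 0.756 FPKM in MDA-MB-157 and 48.5 ± 2.56 FPKM in MDA-MB-231. BCL2L1, which encodes BCL-XL, was at 16.9, 16.4, 14.9 and 16 FPKM in MDA-MB-157 and 118, 114, 111 and 119 FPKM in MDA-MB-231. XIAP, which blocks caspases, was at 27.1 ± 1.17 FPKM in MDA-MB-157 and 8.62 ± 0.161 FPKM in MDA-MB-231. The libraries of MCL1, a survival gene, overlapped at 107 ± 3.01 FPKM in MDA-MB-157 and 105 ± 3.9 FPKM in MDA-MB-231 (adjusted p = 0.49, limma). In homologous recombination 2 of 25 genes were at least 2-fold higher and 2 lower, with BRCA2 at 5.44 ± 0.394 FPKM in MDA-MB-157 and 15.3 ± 0.412 FPKM in MDA-MB-231. BRD2, BRD3 and CRBN, genes of proteins that the study's compounds bind, lay within 2-fold of each other in the lines. BRD2 was at 60 ± 5.26 FPKM in MDA-MB-157 and 92.6 ± 1.21 FPKM in MDA-MB-231, and BRD3 at 3.38 ± 0.269 FPKM in MDA-MB-157 and 4.97 ± 0.746 FPKM in MDA-MB-231. CRBN, the cereblon gene, was at 17.5 ± 1.11 FPKM in MDA-MB-157 and 13.1 ± 0.796 FPKM in MDA-MB-231.

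Genes of the mitochondrial genome and nuclear genes of the respiratory chain differed for the most part in opposite directions. Of 15 mitochondrially encoded genes 10 were at least 2-fold lower in MDA-MB-157 and 0 higher (median log2 difference -1.86). MT-ND3, a complex I subunit gene, was at 90, 109.6, 128 and 118 FPKM in MDA-MB-157 and 1069, 1096, 871 and 948 FPKM in MDA-MB-231. MT-ATP6 was at 55.1, 52.7, 84.5 and 79.3 FPKM in MDA-MB-157 and 519, 480.2, 545 and 316 FPKM in MDA-MB-231, whereas the ribosomal RNA gene MT-RNR2 was at 30458 ± 4132 FPKM in MDA-MB-157 and 38198 ± 3846 FPKM in MDA-MB-231. MT-RNR2 libraries overlapped, and its call (adjusted p = 0.01, limma) was lost without the first DMSO (adjusted p = 0.053) or the second thalidomide library of MDA-MB-157 (adjusted p = 0.052). Of 73 nuclear respiratory chain genes 51 were called as higher and 16 as lower (all genes 50.1% and 37.2%). Past 2-fold 18 were higher and 1 lower (all genes 19% and 11.1%), and the median log2 difference was 0.583 (0.132 over all genes). Under median-of-ratios scaling 14 were at least 2-fold higher and 1 lower, with a median of 0.427 (0.009 over all genes). NDUFA1, a complex I subunit gene, was at 322, 307, 296 and 293 FPKM in MDA-MB-157 and 62.7, 65.6, 57.4 and 70.1 FPKM in MDA-MB-231, and UQCRFS1, the Rieske protein gene of complex III, at 104 ± 4.38 FPKM in MDA-MB-157 and 22.7 ± 1.56 FPKM in MDA-MB-231. Mitochondrial genes took 8.02% to 10.42% of the FPKM sum in MDA-MB-157 and 9.79% to 13.99% in MDA-MB-231. Scaled to column totals without mitochondrial and small RNA genes, 61.5% of the 2-fold calls were higher in MDA-MB-157.

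**Figure D5:**
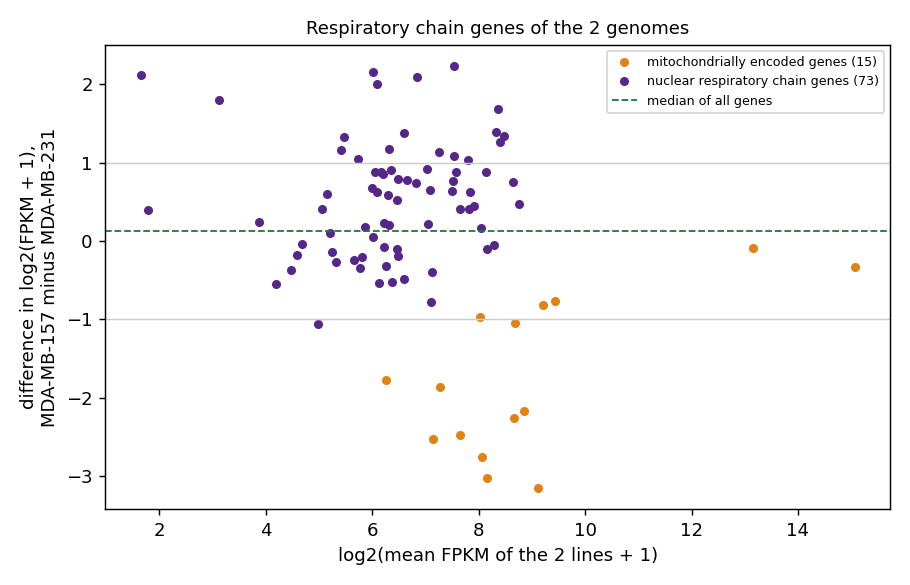
Line difference in log2(FPKM + 1), MDA-MB-157 minus MDA-MB-231, against the mean level of the 2 lines for 15 mitochondrially encoded genes (orange) and 73 nuclear respiratory chain genes (purple). Most orange points lie below -1, and most purple points lie above 0, around a list median of 0.583.

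Carbon and amino acid genes differed at single steps. SLC16A1, a lactate carrier gene, was at 64.6, 67.1, 64.8 and 64.3 FPKM in MDA-MB-157 and 0.172, 0.144, 0.126 and 0.11 FPKM in MDA-MB-231, and SLC16A3, the carrier of glycolytic cells, at 30.5, 24.2, 29.4 and 31.2 FPKM in MDA-MB-157 and 144, 149, 139 and 160.5 FPKM in MDA-MB-231. The glucose carrier gene SLC2A1 was lower at 27.1 ± 1.84 FPKM in MDA-MB-157 and 147 ± 6.79 FPKM in MDA-MB-231, and the hexokinase gene HK2 at 3.23 ± 0.143 FPKM in MDA-MB-157 and 13.6 ± 2.72 FPKM in MDA-MB-231. In all, 2 of 25 glycolysis genes were at least 2-fold higher and 6 lower. PHGDH, the first enzyme of serine synthesis, was at 52, 48.1, 52.2 and 51 FPKM in MDA-MB-157 and 0.88, 1.04, 0.958 and 0.993 FPKM in MDA-MB-231. Of the amino acid carrier genes SLC7A5 was lower at 28.8 ± 3 FPKM in MDA-MB-157 and 189 ± 3.41 FPKM in MDA-MB-231 and SLC7A11 at 3.21 ± 0.171 FPKM in MDA-MB-157 and 20.1 ± 0.574 FPKM in MDA-MB-231. Of 17 serine, glycine and one-carbon genes 4 were at least 2-fold higher and 5 lower (all genes 19% and 11.1%). Of 31 NRF2 target and glutathione genes 4 were at least 2-fold higher and 9 lower, GSTM1 at 0.272 ± 0.134 FPKM in MDA-MB-157 and 10.5 ± 0.43 FPKM in MDA-MB-231 among them. Of the metal-binding metallothioneins MT2A was lower at 27 ± 4.62 FPKM in MDA-MB-157 and 263 ± 15.9 FPKM in MDA-MB-231 and MT1E at 10 ± 0.615 FPKM in MDA-MB-157 and 155 ± 15.3 FPKM in MDA-MB-231, and MT1X was higher at 36.4 ± 2.29 FPKM in MDA-MB-157 and 13.6 ± 0.333 FPKM in MDA-MB-231. In cholesterol synthesis and uptake 3 of 24 were at least 2-fold higher and 6 lower (all genes 19% and 11.1%). SQLE, the squalene epoxidase gene, was higher at 27.5 ± 1.5 FPKM in MDA-MB-157 and 8.23 ± 0.288 FPKM in MDA-MB-231.

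Among 432 zinc finger (ZNF) genes 109 were at least 2-fold higher in MDA-MB-157 and 23 lower, and among 333 named long non-coding RNA genes 91 were higher and 22 lower. Under quantile normalization 82 ZNF genes were higher and 42 lower, and 65 long non-coding RNA genes were higher and 37 lower. ZNF483 was higher at 39.5 ± 1.31 FPKM in MDA-MB-157 and 0.916 ± 0.317 FPKM in MDA-MB-231, and ZNF185 lower at 0.757 ± 0.0845 FPKM in MDA-MB-157 and 27 ± 1.2 FPKM in MDA-MB-231. Among the non-coding genes ZNF667-AS1 was at 26.8 ± 0.776 FPKM in MDA-MB-157 and 0.0199 ± 0.0398 FPKM in MDA-MB-231, and MIR143HG at 26.4 ± 2.11 FPKM in MDA-MB-157 and 0.139 ± 0.0626 FPKM in MDA-MB-231. The libraries do not mark the strand, so reads of an antisense gene cannot be told apart from those of its partner. Of 93 cytosolic ribosomal protein genes 6 were at least 2-fold higher and 12 lower, and of 37 proteasome subunit genes 2 were higher and 3 lower.

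Markers of other cell types were examined because a culture could hold them. The table held 12 entries for 14 fibroblast and pericyte markers, 3 of 10 endothelial, 2 of 13 immune, 5 of 16 neural and 1 of 11 skeletal muscle markers. Of the fibroblast and pericyte markers 8 were at least 2-fold higher and 2 lower in MDA-MB-157, with a summed level of 815.0 to 865.2 FPKM in its libraries and 276.6 to 323.4 FPKM in those of MDA-MB-231. They overlap the collagen and matrix lists. FAP was at 7.96 ± 0.821 FPKM in MDA-MB-157 and 0.0163 ± 0.0107 FPKM in MDA-MB-231. The 2 immune markers in the table were CD14, at 59.8, 50.9, 55.9 and 59.8 FPKM in MDA-MB-157 and 0.246, 0.289, 0.221 and 0.352 FPKM in MDA-MB-231, and CSF1R, at 3.43 ± 0.344 FPKM in MDA-MB-157 and 0.654 ± 0.123 FPKM in MDA-MB-231. Over all libraries CD14 reached at most 0.436 FPKM in MDA-MB-231 and 0.73 FPKM in MDA-MB-468, and CSF1R at most 0.831 and 0.917 FPKM. Both were thus in the table through MDA-MB-157, and their shared direction was fixed by that. Of 3 endothelial markers TEK was higher at 4.28 ± 0.196 FPKM in MDA-MB-157 and 0.0372 ± 0.00699 FPKM in MDA-MB-231 and ESAM lower at 0.163 ± 0.0999 FPKM in MDA-MB-157 and 32.8 ± 1.34 FPKM in MDA-MB-231. Neural markers were higher in 3 of 5 and lower in 1, with L1CAM at 72.1 ± 6.6 FPKM in MDA-MB-157 and 16 ± 1.2 FPKM in MDA-MB-231. Their part in the results above was not tested.

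The line difference was also computed from the libraries of the other treatments, whose group means are separate from those of the controls but which share the fit and its estimate of the spread. In the BETi-211 libraries 2540 genes (18%) were at least 2-fold higher and 1472 (10.4%) lower in MDA-MB-157. Of the genes higher in the controls 2349 (87.6%) were higher there too and 1 was called the other way, and of those lower in the controls 1324 (84.4%) were lower and 0 were called the other way. In the BETd-246 libraries 2767 genes (19.6%) were higher and 1524 (10.8%) lower. Here 2490 (92.8%) and 1376 (87.7%) of the control calls were met again, with 0 called the other way. SPARC had log2 differences of 9.89 in BETi-211 and 10.00 in BETd-246 libraries, against 9.72 in the controls. B2M had -9.64 and -9.63, against -9.37 in the controls. ZEB1 (-1.55 and -1.89, against -1.78), DUSP6 (-3.94 and -4.66, against -4.52), CCND1 (-2.67 and -2.76, against -2.82) and KIT (4.25 and 4.76, against 4.86) kept their direction. CCND1 and KIT had smaller differences under both compounds than in the controls, and so had other genes, picked after their values were seen. SNAI1 had 2.15 and 1.13, against 3.26 in the controls, ID3 had 3.05 and 1.89, against 3.55, HEY1 had 4.09 and 3.81, against 5.33, and CD274 had -2.02 and -1.91, against -3.49. Whether these differences changed with the compound was not tested.

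Whether the line difference depended on the control used was tested as a difference of differences. With limma, 0 genes (0.0%) differed between thalidomide and DMSO at an adjusted p below 0.05, and 775 had an unadjusted p below 0.05. Without the second thalidomide library of MDA-MB-231, which leaves the first as the only one, the count was 1083, and without the first DMSO library of MDA-MB-157 it was 3. The 2-fold counts of the line difference without the first thalidomide library of MDA-MB-231 were 2670 higher and 1568 lower, close to those with it.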

How the data were processed

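RNA was measured in 24 libraries of 3 lines, of which the 8 control libraries of MDA-MB-157 and MDA-MB-231 were compared. The submitters' processing notes name the tools bcl2fastq (2.17.1.14) and also Bowtie (0.12.8), and the build GRCh38.p5. The authors deposited 1 table of expression values per gene, taken here as FPKM: the file does not name the unit, which was read from its values, and neither its program nor its annotation is given in the sources used here. Depth was therefore estimated from the step of low values. Values were log2(FPKM + 1) transformed without a further filter and fitted in limma 3.58.1 (R 4.3.3) with 12 groups of line and treatment over all 24 libraries, with a variance trend. DMSO and thalidomide groups were averaged within a line. P-values were adjusted by Benjamini-Hochberg over 14114 genes, and a gene was called below 0.05. The labels name no batch, and replicate numbers did not pair the libraries. Positions and gene types came from GENCODE 29 by Ensembl gene identifier, and promoters from RefSeq by symbol. The comparison, the gene lists and the rules were chosen with earlier results of these data known. Results of some genes that these rules name are not reported here. Named genes were the 15 widest differences each way at 10 FPKM or more, up to 3 members of a list each way past 2-fold, all members of lists of 8 or fewer, the highest member of a family and a set of single genes. Those chosen outside this rule, after their values were seen, were AP1M2, BMP4, COL4A1, COL4A5, COL6A1, DCN, DUSP4, EIF3J, ERBB2, EREG, FAP, HBEGF, HES1, HGF, HIST1H1A, HIST1H3I, HIST1H4H, HLA-B, HLA-DRA, ID1, ID4, IL11, JAG1, MKRN3, MPHOSPH8, MX1, NCK1, NDN, NFKB2, PEG3, PLAT, PLAUR, RELB, RN7SL151P, SLC35G2, SMAD6, SNHG14, SPG11, SPINT2, SPRY2, STAG1, TGFB3, TNC, ZMYM2 and ZMYM5.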

Additional observations from a re-analysis of the deposited data

Results flagged for a closer look

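In 4 control libraries of a line, a library whose gap to the nearest of the others exceeds Dixon's limit was taken as standing apart, which chance does in about 1 in 20 pairs of a gene and a line. Of 392 such pairs 26 were taken so, 11 of them in the first thalidomide library of MDA-MB-231. The first thalidomide library of MDA-MB-231 stood above the other 3 for CTGF (73.7 FPKM against 38.8 to 42.1), CYR61 (156.7 FPKM against 81.9 to 93.3) and FP236383.5 (233 FPKM against 74.7 to 88.9). It was higher as well for GPRC5A (80.8 FPKM against 65.6 to 67.5), ITGA2 (15.2 FPKM against 13.4 to 13.7) and MKI67 (142 FPKM against 67.9 to 79.4). It was higher as well for NR2F2 (47.3 FPKM against 32.5 to 34.1) and ZNF483 (1.39 FPKM against 0.702 to 0.81). The first thalidomide library of MDA-MB-231 stood below the other 3 for ANP32A (36.2 FPKM against 44 to 45.3), DKK1 (194 FPKM against 234 to 239.6) and SDPR (23.7 FPKM against 28.4 to 28.8). The first DMSO library of MDA-MB-157 stood above the other 3 for LAMB3 (7.44 FPKM against 6.41 to 6.5) and RN7SL151P (28.2 FPKM against 15.9 to 18). The first DMSO library of MDA-MB-157 stood below the other 3 for SOX9 (3.89 FPKM against 4.26 to 4.3). The second DMSO library of MDA-MB-157 stood above the other 3 for BRCA2 (6.03 FPKM against 5.21 to 5.28), MTAP (23.6 FPKM against 22.2 to 22.4) and PEG3 (16.7 FPKM against 15 to 15.2). It was higher as well for ZNF483 (41.5 FPKM against 38.8 to 39). The second DMSO library of MDA-MB-157 stood below the other 3 for PCOLCE (46.7 FPKM against 52.7 to 53.8). The second thalidomide library of MDA-MB-157 stood above the other 3 for CD74 (1.29 FPKM against 1.14 to 1.15). The first DMSO library of MDA-MB-231 stood above the other 3 for COL1A1 (0.642 FPKM against 0.549 to 0.562), IL6 (7.66 FPKM against 6.55 to 6.72) and OAS2 (5.58 FPKM against 4.93 to 4.99). The second thalidomide library of MDA-MB-231 stood above the other 3 for CDKN1A (37.2 FPKM against 32.1 to 32.8), COL13A1 (48 FPKM against 44.7 to 45.2) and IL11 (78.9 FPKM against 64.7 to 67.1).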

How the results depend on the processing

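In 10963 of 11117 alternatives over 447 genes named by the rule or in the text, a called gene kept its direction and its call, or an uncalled gene stayed uncalled. For a gene not called in the main fit, a turn of sign that was not called either is included in that count. Calls were lost in 129 (76 genes), most of them against a 2-fold difference, and gained in 15 (6 genes). The sign turned for CDH1 (-0.2290), PTCH1 (-0.2842) and KLF4 (-0.1166) under quantile normalization, where MT-RNR2 was 0.0000. It turned for RBX1 (-0.0168), KRT8 (-0.1048), MCL1 (-0.1287), ANXA2 (-0.1514) and FOXK2 (-0.0426) under median-of-ratios scaling, and for ANXA2 without the first thalidomide library of MDA-MB-231 (-0.0645 to 0.0764 over all single libraries left out). The cause was not tested, and all of these genes lay within 2-fold between the lines on the log2(FPKM + 1) scale. A pseudocount of 5 in place of 1 gave 1343 genes at least 2-fold higher and 883 lower, since it shrinks the differences of low genes. A test against a 2-fold difference called 3596 genes. Leaving out 1 library at a time gave 12105 to 12455 called genes, with 2656 to 2723 at least 2-fold higher and 1547 to 1595 lower, and 0 to 1083 genes whose line difference depended on the control.

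With the replicate number as a block (replicate block) 12309 genes were called, with 2683 at least 2-fold higher and 1569 lower. The correlation of same-numbered libraries, -0.114 to 0.134, gave no pairing. FPKM carry no counts, so depth limits what can be said of genes under about 0.5 FPKM.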
